A study of Mus musculus with 6 samples.

Results

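The major histocompatibility complex (MHC) genes of the mouse were followed in the livers of Dhx32 mutant and control mice. They were taken as every gene symbol that the array's annotation gives alone to a probe set and that starts with H2-, plus B2m, Cd74 and Ciita, which made 33 genes of 16139 single symbols on the array. By role these were 6 class I genes of the K, D and Q regions, 14 class I genes of the T and M regions, 8 class II genes, the class I light chain B2m, the class II partner Cd74 and the class II regulator Ciita. The other two, H2-Ke2 and H2-Ke6, carry H2- names for their place on the chromosome and encode no MHC molecule. RefSeq places 29 of the members on chromosome 17, B2m on chromosome 2, Ciita on chromosome 16 and Cd74 on chromosome 18, and H2-gs10 had no match.

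The study measured liver RNA on exon arrays, which carry probe sets for single exons, in 3 control and 3 Dhx32-/- male mice of 6 to 8 weeks. Controls are labelled wild type and mutants are homozygous for the Dhx32 mutation. Dhx32 encodes a protein of the DEAH-box RNA helicase family. The design of the allele and the background strain are not given in the sources used here. The labels number the samples within each group and say no more of their origin, so p-values measure the spread between these samples.

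A class I molecule is a heavy chain, encoded by genes such as H2-K1 and H2-D1, held together with the light chain beta-2 microglobulin, B2m. It carries peptides cut from proteins inside the cell to the surface, where CD8 T cells read them. A class II molecule pairs an alpha and a beta chain, encoded by H2-Aa with H2-Ab1 and by H2-Ea with H2-Eb1, is guided by the invariant chain Cd74, has its peptide exchanged by H2-DM under the restraint of H2-DO, and is read by CD4 T cells. In liver, class I is found on nearly all cells, class II mainly on Kupffer cells, dendritic cells, B cells and sinusoidal endothelium, and hepatocytes secrete the class I protein H2-Q10.

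The 200 bases before the RefSeq start are shown for 6 members, the class I genes compared below with their light chain and the class II alpha chain H2-Aa, because the shared control sequences of class I and class II lie there. The windows are from RefSeq on GRCm38.p6 and run from 5′ to 3′ on the gene's strand. Of 2 starts listed for H2-K1, the one shown is the second in the table. Capitals mark 4 motifs searched on both strands. These are the κB site of the class I enhancer (the first run of capitals in H2-K1), the core of an interferon-stimulated response element (a pair of TTTC copies with 2 free bases between them), TGACG (a cyclic AMP response element core, part of the X box) and ATTGG (an inverted CCAAT, the core of the Y box).
H2-K1 (chr17:34000334-34000533, minus strand): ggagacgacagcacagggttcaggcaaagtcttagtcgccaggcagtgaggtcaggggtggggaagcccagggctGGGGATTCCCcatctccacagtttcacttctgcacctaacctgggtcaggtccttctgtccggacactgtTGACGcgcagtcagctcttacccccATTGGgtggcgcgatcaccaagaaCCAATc
H2-D1 (chr17:35262894-35263093, plus strand): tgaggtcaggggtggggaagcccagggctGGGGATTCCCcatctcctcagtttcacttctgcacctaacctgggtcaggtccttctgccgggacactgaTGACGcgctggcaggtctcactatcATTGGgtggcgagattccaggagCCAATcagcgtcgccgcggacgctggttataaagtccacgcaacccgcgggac
H2-Q7 (chr17:35438955-35439154, plus strand): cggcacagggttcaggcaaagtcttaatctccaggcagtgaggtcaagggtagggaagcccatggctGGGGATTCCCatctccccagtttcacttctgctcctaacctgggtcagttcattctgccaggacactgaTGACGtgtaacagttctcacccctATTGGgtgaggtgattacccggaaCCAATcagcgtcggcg
H2-Q10 (chr17:35469889-35470088, plus strand): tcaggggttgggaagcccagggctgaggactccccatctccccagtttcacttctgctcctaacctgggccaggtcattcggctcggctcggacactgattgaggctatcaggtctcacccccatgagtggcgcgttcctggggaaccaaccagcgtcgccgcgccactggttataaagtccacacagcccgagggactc
B2m (chr2:122147487-122147686, plus strand): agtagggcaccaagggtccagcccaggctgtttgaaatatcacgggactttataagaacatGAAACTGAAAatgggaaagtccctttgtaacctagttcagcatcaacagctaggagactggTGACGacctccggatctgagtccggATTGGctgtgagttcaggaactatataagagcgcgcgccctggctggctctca
H2-Aa (chr17:34287824-34288023, minus strand): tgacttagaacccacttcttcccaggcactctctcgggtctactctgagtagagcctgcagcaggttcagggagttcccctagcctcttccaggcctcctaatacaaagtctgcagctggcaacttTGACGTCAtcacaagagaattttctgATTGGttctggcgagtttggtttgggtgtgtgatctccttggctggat

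H2-K1, H2-D1 and H2-Q7 each held the κB site, TGACG and ATTGG in this order. From the first base of the κB site to that of TGACG there were 70, 70 and 69 bases, and from TGACG to ATTGG 25, 25 and 24 bases. H2-Q10 held no exact match to the 4 motifs in its window. B2m held the response element on the reverse strand, then TGACG and ATTGG. In H2-Aa the capitals before ATTGG are 2 overlapping TGACG matches, 1 on each strand. Over 32851 windows of the same length, 0.067% held the κB site, 2.27% the response element, 15.7% TGACG and 29.3% ATTGG. Among the 26 members whose windows were searched, 3 held the κB site, 3 the response element, 10 TGACG and 23 ATTGG. Cd74 was not searched. A member with 2 windows was counted if either held the motif, while the shares above are per window. Only exact matches were counted, so a window without a match, as for the response element in the class I windows shown, may still hold a variant of it. A match describes the letters only, and the arrays did not measure binding.

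Dhx32 itself was at 8.28, 8.85 and 8.62 in controls and 6.35, 6.60 and 7.04 in mutants, a difference of -1.92 (SE 0.23, adjusted p 0.183 in limma). The 13 hepatocyte markers tested had mean signals from 11.2 to 13.9, and none was under the minimum. Mutant 1 correlated least with the other arrays (Pearson r over probe sets from 0.935 to 0.940, against 0.960 to 0.973 among the other five), and its neutrophil marker list was 0.87 above the control mean.

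None of the tested MHC genes passed the test between genotypes. Of the 33 members, 28 had at least 2 probe sets with a mean log2 signal of 3 or more in a group and were tested as genes. At an adjusted p under 0.05 in limma, a linear model fit across all genes with Benjamini-Hochberg adjustment, 0 of 28 members were called and 1 had an unadjusted p under 0.05. Over all 15045 genes tested, 0.00665% were called and 4.21% had an unadjusted p under 0.05. The members' adjusted p lay between 0.943 and 0.994. The mean was higher in mutants for 15 members and lower for 13, where 47.5% of all genes were higher, with a median difference of 0.01 (log2, mutant minus control, here and below) against -0.01 over all genes. The mutants' values did not overlap the controls' in 2 members, H2-Q7 and H2-Aa, both with mutants lower, against 4.32% of all genes with mutants lower and 5.15% with mutants higher.

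**Figure D1:**
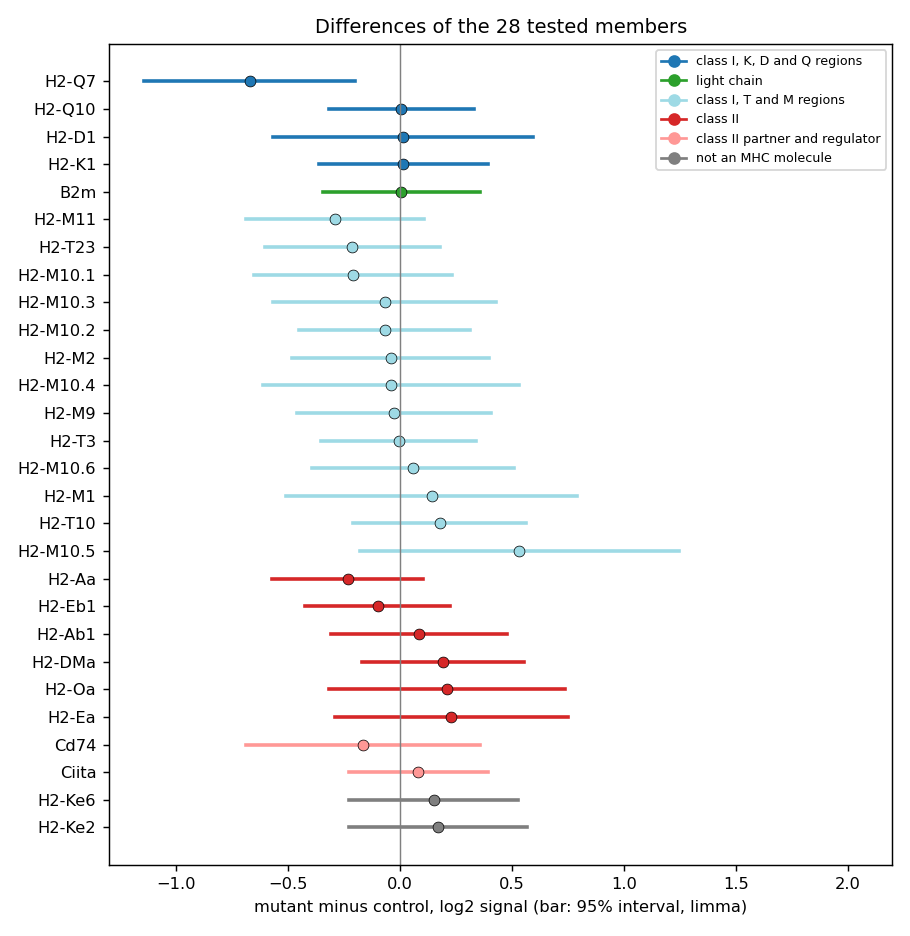
Mutant minus control difference of each of the 28 tested members (x axis, log2 signal), coloured by role, with limma's 95% interval as a bar. The interval of H2-Q7 lies below 0 and those of the other 27 members span 0.

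The classical class I heavy chains had nearly equal means in both genotypes, but they differed between livers of 1 genotype. H2-D1 had gene signals of 10.62, 11.31 and 11.22 in controls 1, 2 and 3 and of 11.37, 10.64 and 11.19 in mutants 1, 2 and 3. Control 1 and mutant 2 were thus low together, and the other 4 livers lay between 11.19 and 11.37. The difference of the group means was 0.01 (SE 0.25, 95% interval -0.57 to 0.60), and 0.14 with the median over its probe sets in place of the mean. H2-K1 was at 10.18, 10.47 and 10.34 in controls and at 10.26, 10.22 and 10.57 in mutants. Its lowest livers were again control 1 and mutant 2, with mutant 1 just above them. Its difference was 0.01 (SE 0.16, interval -0.36 to 0.39). With the mean over probe sets the interval was thus narrower for H2-K1 than for H2-D1. With the median over probe sets the SE was 0.24 for H2-K1 and 0.28 for H2-D1, so this contrast depends on the gene summary.

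H2-Q10, the class I gene of hepatocytes, was at 11.30, 11.23 and 11.21 in controls and at 11.18, 11.37 and 11.21 in mutants. Control 1 and mutant 2, the low livers of H2-D1, were its 2 highest. The spread from lowest to highest liver was 0.19 for H2-Q10, 0.38 for H2-K1 and 0.75 for H2-D1, where the median gene had 0.61. After quantile normalization it was 0.30 for H2-Q10, 0.27 for H2-K1 and 0.79 for H2-D1, so the order of the first pair turned. The H2-Q10 difference was 0.01 (SE 0.14, interval -0.32 to 0.33), and -0.18 with the median over probe sets.

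H2-Q7, a heavy chain of the Qa-2 antigen, was the member with the smallest p. Its gene signal was 7.91, 8.38 and 8.13 in controls (mean 8.14 ± 0.24 SD, n = 3) and 7.13, 7.73 and 7.55 in mutants (mean 7.47 ± 0.31 SD, n = 3). All 3 mutants lay below all 3 controls. The difference was -0.67 (SE 0.20), a 1.59-fold lower signal, with an unadjusted p of 0.011 and an adjusted p of 0.943 in limma. The 3 probe sets behind this mean did not share it. Probe set 5263551 was at 5.06, 6.15 and 5.59 in controls and at 2.36, 4.72 and 4.52 in mutants, a difference of -1.74 (SE 0.62, adjusted p 0.994 over all probe sets). Probe set 5024043, at 8.88, 9.19 and 9.02 in controls and 9.25, 8.74 and 9.05 in mutants, differed by -0.02. Probe set 4747259 was between 9.72 and 9.79 in 5 livers and at 9.07 in mutant 3. With the median over probe sets in place of the mean, the H2-Q7 difference was -0.02, and without mutant 1 it was -0.50. The labels name no H2 haplotype for either group, and whether probe set 5263551 binds the transcripts of both groups alike was not tested.

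**Figure D2:**
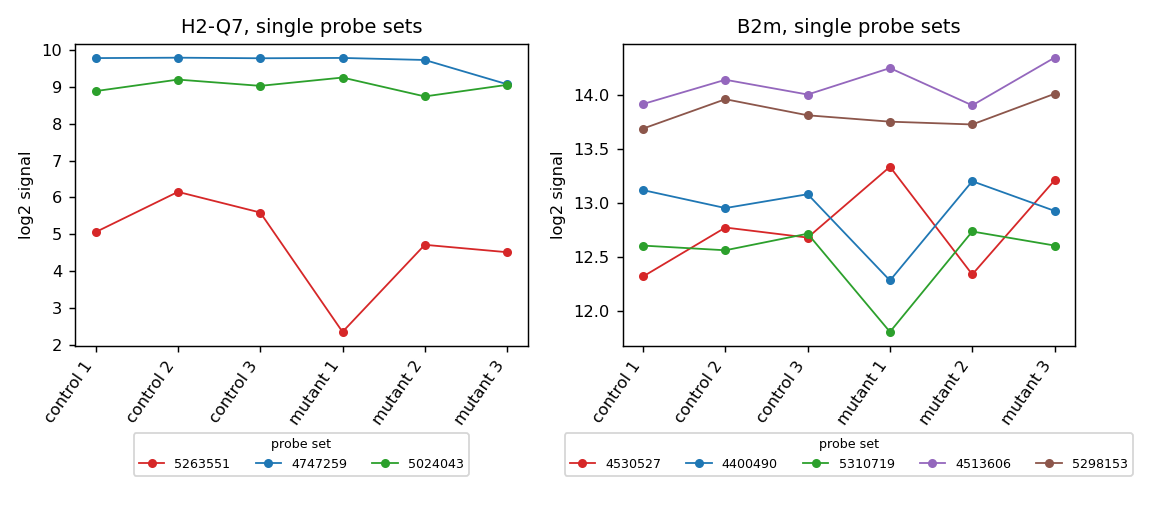
Log2 signal of each probe set (1 line per probe set) of H2-Q7 (left) and B2m (right) in the 6 livers, on axes that do not start at 0. In H2-Q7 only probe set 5263551 separates the groups, at 5.06 or more in controls and 4.72 or less in mutants, and in B2m mutant 1 is low in probe sets 4400490 and 5310719.

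B2m, the light chain that class I heavy chains need to reach the cell surface, had nearly equal group means. It was at 13.13, 13.28 and 13.26 in controls and at 13.09, 13.18 and 13.42 in mutants, a difference of 0.01 (SE 0.15, interval -0.35 to 0.36) that was 0.20 with the median over probe sets. The groups overlapped in the gene mean. Its 5 probe sets did not run together in mutant 1. Probe set 4400490 was at 12.29 in mutant 1 and between 12.93 and 13.20 in the other livers, and 5310719 was at 11.81 against 12.57 to 12.74. In probe set 4530527 mutant 1 was the highest of the livers at 13.34, where the others lay between 12.32 and 13.21. These are levels of single probe sets, and the gene mean averages over them.

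The class I genes of the T and M regions, many of them studied outside liver, included 13 tested genes, 4 with a higher and 9 with a lower mean in mutants. None of them passed the test, against 0.00665% of all genes. None had groups that did not overlap, against 4.32% of all genes with mutants lower and 5.15% with mutants higher. H2-T23, which encodes Qa-1, a ligand of NK cell receptors, was at 8.50, 8.32 and 8.10 in controls and 7.98, 8.29 and 8.01 in mutants. Its difference was -0.21 (SE 0.17). H2-M10.5, of a family known from vomeronasal neurons, had a difference of 0.53 (SE 0.31, adjusted p 0.943). It was 0.21 without control 1, 0.25 without control 2 and 0.86 with the median over probe sets. H2-M10.5 was at 4.32, 4.39 and 5.28 in controls and 4.77, 5.16 and 5.65 in mutants, so that control 3 lay above mutants 1 and 2. H2-M11 was at 4.38, 4.61 and 4.73 in controls and 4.38, 4.43 and 4.05 in mutants, a difference of -0.29 (SE 0.17). H2-M10.1 was at 4.68, 4.66 and 4.68 in controls, and the mutants, at 4.12, 4.81 and 4.46, lay on both sides of these. Its difference of -0.21 (SE 0.19) was 0.16 with the median over probe sets. These are low signals. The lower quartile of probe set signals ran from 4.97 to 5.14 over the arrays. H2-M11 and H2-M10.1 lay below it in every liver, and H2-M10.5 lay on both sides of it. The other 9 tested genes of the regions, H2-T3, H2-T10, H2-M1, H2-M2, H2-M9, H2-M10.2, H2-M10.3, H2-M10.4 and H2-M10.6, differed by -0.07 to 0.18. RefSeq lists H2-T10 as a transcribed pseudogene, and 20 further probe sets carry its symbol together with others. Over all 17 tested class I genes the median difference was -0.03.

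The class II genes had differences on both sides of 0, none past the threshold. H2-Aa, the alpha chain of the I-A molecule, was at 8.33, 8.36 and 8.22 in controls (mean 8.30 ± 0.07 SD, n = 3) and 7.95, 8.04 and 8.22 in mutants (mean 8.07 ± 0.14 SD, n = 3). The lowest control and the highest mutant were equal to 2 decimals, so the groups only just did not overlap. The difference was -0.23 (SE 0.15, adjusted p 0.943), and all 6 kept probe sets had lower means in mutants, by 0.04 to 0.46 on the log2 scale. Its partner beta chain H2-Ab1 differed the other way, by 0.08 (SE 0.17), with 8.39, 8.26 and 8.05 in controls and 8.22, 8.18 and 8.55 in mutants. H2-Eb1, the beta chain of I-E, was at 8.29, 8.51 and 8.35 in controls and 8.28, 8.25 and 8.33 in mutants, a difference of -0.10 (SE 0.14). H2-Ea, which RefSeq lists as a transcribed pseudogene, was at 4.67, 3.82 and 4.47 in controls and 4.64, 4.45 and 4.56 in mutants, a difference of 0.23 (SE 0.23). Its signal was under the lower quartile of probe set signals in every liver.

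The tested chains of H2-DM and H2-DO had higher means in mutants without passing the test. H2-DMa, a chain of the H2-DM exchange factor, was at 6.18, 5.80 and 5.86 in controls and 6.17, 6.16 and 6.09 in mutants, a difference of 0.19 (SE 0.16) that was -0.18 with the median over its probe sets. Control 1 lay above all mutants. H2-Oa, a chain of its inhibitor H2-DO, was at 4.36, 4.56 and 4.24 in controls and 4.86, 4.84 and 4.10 in mutants, a difference of 0.21 (SE 0.23). The H2-Oa signal was also under the lower quartile of probe set signals in every liver. Over the 6 tested class II genes, 4 had higher and 2 lower means in mutants, with a median of 0.14. That median was -0.07 with a signal minimum of 5, which leaves 4 of the genes.

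Cd74, the invariant chain, was at 8.43, 8.76 and 8.97 in controls and 8.85, 8.15 and 8.66 in mutants. Control 1 and mutant 2 were its 2 lowest livers, as in H2-D1, and the group difference was -0.17 (SE 0.23), or -0.36 with the median over probe sets. Of its 12 probe sets, 9 had lower means in mutants. Ciita, the co-activator that turns on class II genes, was at 5.42, 5.48 and 5.39 in controls and 5.54, 5.51 and 5.47 in mutants, a difference of 0.08 (SE 0.14, interval -0.23 to 0.39). Its range over the livers was 0.16, and 0.30 after quantile normalization. H2-Ke2, which encodes a prefoldin subunit, and H2-Ke6, a hydroxysteroid dehydrogenase, differed by 0.17 and 0.15.

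**Figure D3:**
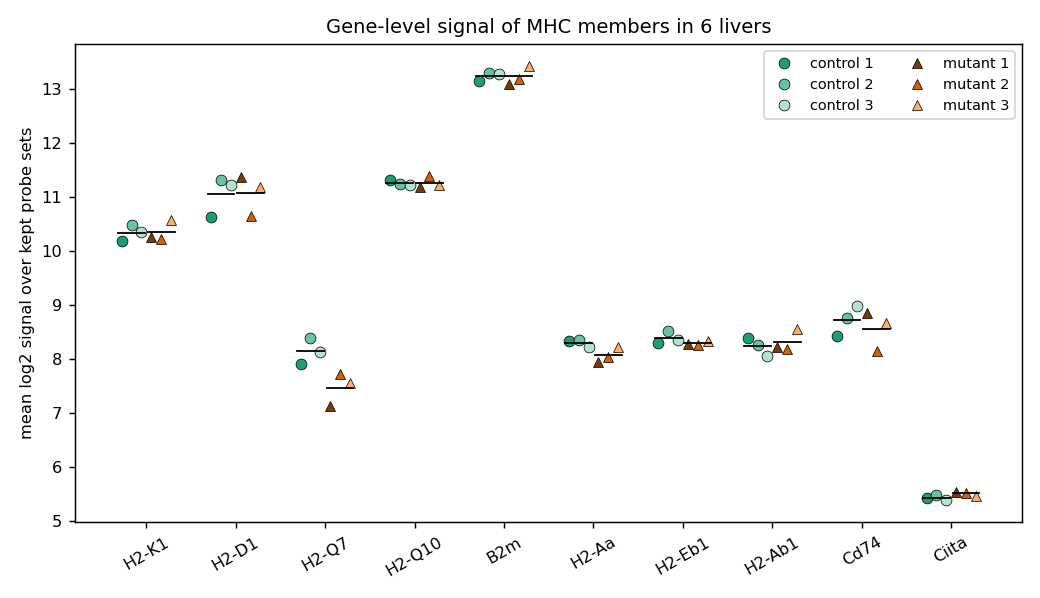
Gene signal (y axis, mean log2 over kept probe sets, not starting at 0) of 10 members in each of the 6 livers, with the mean of each group as a line. H2-Q7 has separated groups, those of H2-Aa meet at 8.22, and H2-D1 and Cd74 show control 1 and mutant 2 low.

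The 5 members with a single probe set were not tested as genes. H2-Q8 differed by 0.00, H2-gs10 by -0.27, H2-t9 by 0.37, H2-DMb1 by 0.44 and H2-DMb2 by -0.15, and in each the groups overlapped. Of 197 member probe sets, 175 passed the signal minimum. At an adjusted p under 0.05 in limma 0 of these 175 were called, as were 0% of all 191663 probe sets. An unadjusted p under 0.05 was reached by 2 of the 175, against 4.07% of all. These were H2-Q7 probe set 5263551 and H2-M2 probe set 5020220, named after their values were seen. The H2-M2 probe set was near the signal minimum, at 3.21, 4.34 and 2.21 in controls and 2.12, 1.83 and 1.80 in mutants. Only its control mean reached the minimum, so it was kept through that group alone. Groups did not overlap in 12 member probe sets, 3 with mutants higher and 9 lower, against 8.45% of all.

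Exon usage, the question of the study's design, was tested as a change of a gene's probe sets relative to each other (diffSplice F-test in limma, for genes with at least 3 probe sets). Among the members 0 of 24 were called, against 0.21% of all 14310 genes, and 1 had an unadjusted p under 0.05, against 4% of all. That member was H2-Q7, with an unadjusted p of 0.030 and an adjusted p of 1 in limma. H2-K1 and H2-D1, with 13 and 10 probe sets, had unadjusted p of 0.995 and 0.999 in limma. Class I genes are close relatives, and 58 further probe sets are assigned to several symbols of which at least 1 starts with H2-. Of these 55 passed the minimum, 0 were called, and their differences ranged from -0.66 to 0.76. Cross-hybridisation between class I relatives was not tested.

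The low values of control 1 and mutant 2 were seen after the values were known and are described without a test. Probe sets of 1 gene are not independent of each other. Over all probe sets, control 1 and mutant 2 had the highest correlation of any pair of arrays (Pearson r 0.973). They were the 2 lowest livers in 9 of 13 H2-K1 and 8 of 10 H2-D1 probe sets, against 13.1% of all kept probe sets and 18.8% of those with a mean signal of 8 or more. The median deviation from a probe set's mean was -0.27 in both livers for H2-K1. For H2-D1 it was -0.51 in control 1 and -0.43 in mutant 2, and for Cd74 -0.26 and -0.50. In H2-Q10 it was 0.06 and 0.02. The same livers were the 2 highest in 7.72% of all kept probe sets. They were so in 2 of the 13 H2-K1 probe sets, also after quantile normalization. One of them, 4904496, was at 9.51 and 9.58 in control 1 and mutant 2 and between 7.83 and 8.31 in the others. Of the shared class I and class II probe sets, 21 of 55 had these 2 livers lowest. Among the 28 tested members they were the lowest in 5, namely H2-K1, H2-D1, Cd74, H2-T10 and H2-M9, against 10.9% of all genes. After quantile normalization the counts were 8 of 13 for H2-K1 and 8 of 10 for H2-D1, against 10.7% of all kept probe sets. That share is over all signal levels. After median centring the counts were 7 of 13 for H2-K1 and 8 of 10 for H2-D1.

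**Figure D4:**
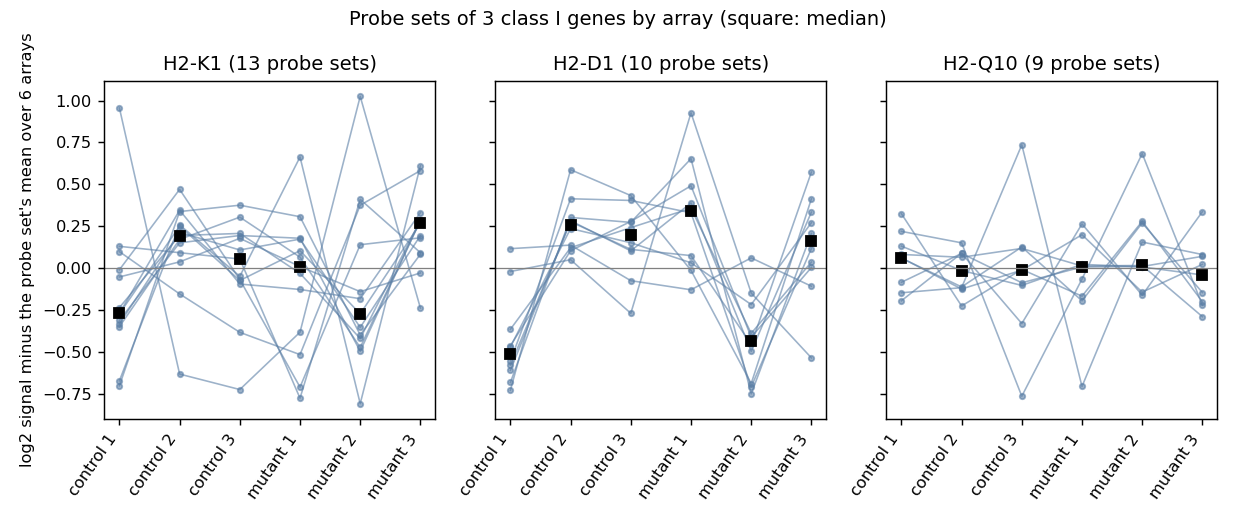
Log2 signal of every kept probe set of H2-K1, H2-D1 and H2-Q10, minus its own mean over the 6 livers (y axis), with 1 line per probe set and a square at the median. Control 1 and mutant 2 have medians of -0.27 and -0.27 for H2-K1, -0.51 and -0.43 for H2-D1, and 0.06 and 0.02 for H2-Q10.

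Among the gene lists around the MHC, some had the same livers low and others did not. In the type I interferon response list, control 1 and mutant 2 had mean levels of -0.32 and -0.32 relative to the control mean, and they were the 2 lowest livers in 7 of 15 genes. They were also the 2 lowest in 6 of 13 class II processing genes and in 4 of 13 hepatocyte markers, against 10.9% of all genes. Of the B cell markers 0 of 12 had these livers lowest, and of the T and NK cell markers 0 of 14. As a list, the class II processing genes stood at 0.03 in control 1 and -0.16 in mutant 2. The hepatocyte list stood at -0.04 and -0.02, with mutant 1 at -0.15. The interferon gamma list stood at -0.07 in control 1 and -0.23 in mutant 2, with mutant 1 between them at -0.14. Class II is carried by macrophages and endothelium among others, and the Kupffer cell list stood at -0.32 in control 1 and -0.27 in mutant 2, with mutant 3 at -0.23 and mutant 1 at 0.51. The sinusoidal endothelium list stood at -0.24 and -0.50 in control 1 and mutant 2, with mutant 1 at -0.21. The 6 tested class II genes, without Cd74 and Ciita, were not low in these livers. Their mean level was 0.11 in control 1 and 0.06 in mutant 2. The B cell list lay between -0.11 and 0.08 in the 6 livers. The median mean signal of the markers tested was 7.87 for Kupffer cells, 8.58 for endothelium, 5.42 for B cells and 5.61 for dendritic cells, and none of the B cell and dendritic cell markers reached 8. In bulk liver, fewer cells of a type and less RNA per cell cannot be told apart, and the part of these lists in the class I values was not tested. The median signal of all probe sets was 6.81 in control 1 and 6.79 in mutant 2, and from 6.73 to 6.95 over the 6 arrays.

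**Figure D5:**
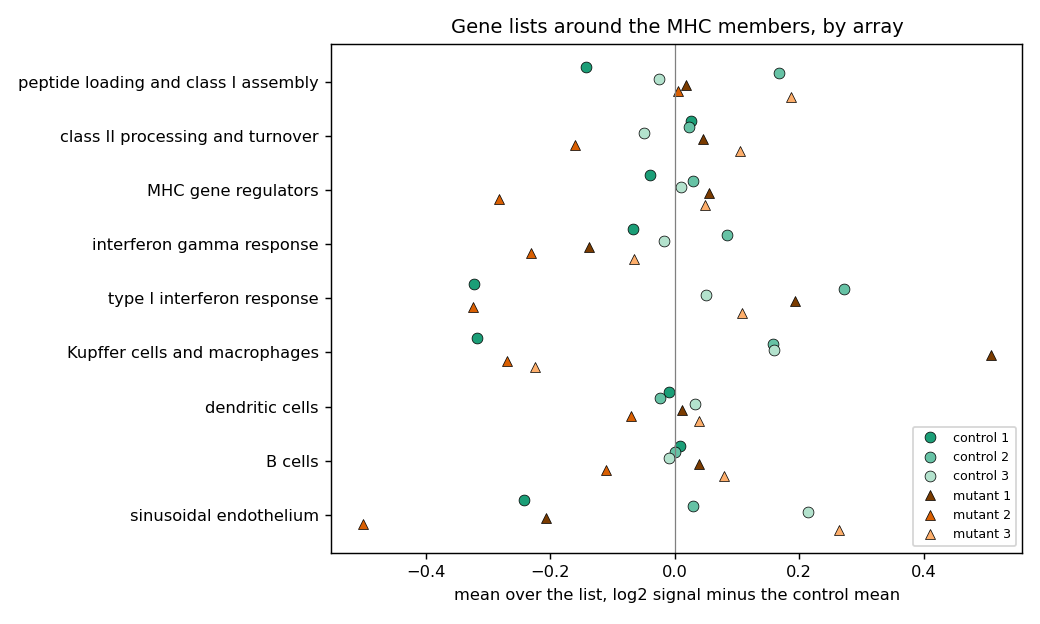
Mean over the genes of each list of the log2 signal minus the control mean (x axis), with 1 point per liver. Control 1 and mutant 2 are the lowest livers in the type I interferon list, at -0.32 and -0.32. The B cell and dendritic cell lists, whose markers have median signals of 5.42 and 5.61, lie between -0.11 and 0.08.

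The genes that load and assemble class I had higher means in mutants in 12 of 16 cases, and 0 were called. Of all genes, 47.5% had higher means and 0.00665% were called, shares that also apply to the lists below. The median difference of the list was 0.15, and its smallest unadjusted p was 0.126 in limma. The 3 with the smallest p were Lnpep at -0.35 (SE 0.21) and Erap1 at -0.46 (SE 0.28), aminopeptidases that trim peptides, and the chaperone Canx at 0.27 (SE 0.17). In Tap1, Tapbp, Tapbpl and Psmb10, picked after their values were seen, control 1 and mutant 2 were the 2 lowest livers. Tap1, a subunit of the peptide transporter, was at 7.13, 8.06 and 7.60 in controls and 7.98, 7.31 and 7.92 in mutants. The class II processing list had 6 higher and 7 lower means among 13 genes, with 0 called. Cathepsin H, Ctsh, was at 11.38, 11.29 and 11.28 in controls and 10.94, 11.12 and 11.26 in mutants.

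Among 18 regulators of MHC genes, 8 had higher and 10 lower means and 0 were called. Irf1, an interferon-induced activator of class I genes, had the smallest p of the list. It was at 7.81, 7.84 and 7.54 in controls (mean 7.73 ± 0.16 SD, n = 3) and 7.05, 6.71 and 7.03 in mutants (mean 6.93 ± 0.19 SD, n = 3). All mutants lay below all controls, by -0.80 on average (SE 0.17, adjusted p 0.896). Nfyc, a subunit of the factor that binds the Y box, differed by -0.32 (SE 0.17) and Irf2 by -0.42 (SE 0.24).

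The interferon gamma response list had 6 higher and 10 lower means in 16 genes, a median of -0.26 and 0 calls. Gbp4, a guanylate-binding protein, was at 6.42, 6.93 and 6.88 in controls and 5.97, 6.11 and 6.22 in mutants, and the chemokine Cxcl11 differed by -0.58 (SE 0.21). Igtp, an immunity-related GTPase, was separated in the other direction, at 7.21, 7.28 and 7.41 in controls and 7.80, 7.93 and 7.72 in mutants. In the type I interferon list 8 of 15 means were higher and 7 lower, with 0 called. Its smallest p belonged to Ifit2 at -0.44 (SE 0.17), followed by Stat2 at 0.37 (SE 0.19) and Mx2 at 0.38 (SE 0.27).

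Of 9 class I-like genes outside the H2 names, 3 had higher and 6 lower means and 0 were called. Mr1, which presents vitamin B metabolites, was at 7.34, 7.76 and 7.32 in controls and 6.31, 6.97 and 7.13 in mutants, with a difference of -0.67 (SE 0.24, adjusted p 0.943). The receptors that read MHC molecules had 5 higher and 10 lower means in 15 genes, with 0 called. Of smallest p were Cd3g, which differed by -0.34 (SE 0.17), Cd8b1 by -0.30 (SE 0.18) and Cd4 by -0.27 (SE 0.17). Among their partner chains, Cd8a differed by 0.13 (SE 0.18), Cd3d by 0.10 (SE 0.25) and Cd3e by -0.24 (SE 0.18). The signals of this list were low, with a median of 4.97. The lower quartile of probe set signals ran from 4.97 to 5.14 over the arrays.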

How the data were processed

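The authors deposited log2 signals of exon array probe sets for 6 arrays, made with RMA and Affymetrix Expression Console 1.1, and used Partek 6.4 for alternative splicing, per the submitters' processing notes; the deposited log2 values were used as given. Probe sets took gene names from GEO's platform annotation (185264 with 1 symbol, 3488 with several, 15779 not listed). Of these symbols 13995 were current in RefSeq, 2102 had a unique newer name and 42 matched none; members keep the file's names. Probe sets with a mean under 3 in both groups were left out, 3 being the minimum of the study's design text. Gene values averaged the kept probe sets, with 2 or more required. Mutants were compared with controls by lmFit, eBayes and diffSplice in limma 3.58.1 (R 4.3.3), adjusted by Benjamini-Hochberg over all features, at 0.05. The steps were tested on simulated data. The members and lists were chosen with earlier results of these data known. Values on every array are given for B2m, Cd74, Ciita and H2-Q10, and for up to 4 members of smallest p per role group; H2-Ab1 and H2-Eb1 were added after their values were seen; other lists name up to 3 genes of smallest p. Alternatives were the signal minimum, normalization, gene summary, variance trend, replicate block and leaving out each array. The number of arrays limits the precision.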

Additional observations from a re-analysis of the deposited data

How the results depend on the processing

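No member was called as a gene, a probe set or in exon usage under any alternative run with limma. The class II median difference, 0.14, was -0.0082 with no signal minimum and -0.073 with a minimum of 5, and it lay between 0.038 and 0.18 when each array was left out in turn. The class I median lay between -0.11 and 0.019 with an array left out. With a minimum of 5, H2-DMa differed by -0.046, and with no minimum H2-Ea differed by -0.10. With the median over probe sets, H2-DMa differed by -0.18, H2-K1 by -0.020, H2-M10.1 by 0.16 and H2-Q10 by -0.18, while B2m differed by 0.20, H2-D1 by 0.14, Cd74 by -0.36 and H2-M10.5 by 0.86. The cause was not tested. Leaving out each array gave ranges that span 0 for B2m (-0.089 to 0.078), Cd74 (-0.31 to 0.036), H2-D1 (-0.20 to 0.23), H2-Ea (-0.019 to 0.41), H2-K1 (-0.095 to 0.084) and H2-Q10 (-0.054 to 0.043). H2-Q7 lay between -0.80 and -0.50 with an array left out, but differed by only -0.021 with the median over probe sets.

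Deviations from the group means correlated at 0.10, -0.11 and 0.18 between same-numbered samples, and from -0.30 to 0.21 between differently numbered ones. The same-number values lay within that range, and 3 samples a group are too few to decide whether the numbers mark pairs. With the replicate number as a block 0 members were called as genes, with an unadjusted p under 0.05 in 2 of 28. The 3 arrays a group limit the precision, and standard errors of the tested members ran from 0.14 to 0.31.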
